A study of Drosophila melanogaster with 4 samples.

Results

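The segment of chromosome arm 3R described here holds the tagged gene itself, Abd-B, and the DNA beyond its 5′ end. Its members were chosen by called peak position, as every peak whose midpoint lies from 12755000 to 12850000 on FlyBase release 5, and 55 of the 2949 deposited peaks (1.87%) met that rule. They made up 7.93% of the 694 peaks of 3R. The window was drawn around a dense block of peaks already seen in the same list, so peak number, spacing, width and score in it are descriptions, and no test is made of any of them.

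Binding of the tagged protein was mapped by chromatin immunoprecipitation and sequencing (ChIP-seq) in wandering larvae (stage L3, sex Unknown) of Drosophila melanogaster. All 4 libraries, 2 of ChIP DNA and 2 of input DNA, carry the same strain label, Abd-B-GFP, with the genotype w; PBac{y[+]-attP-3B}VK00037 and a transgene of Abd-B genomic sequence in which GFP stands in place of the stop codon. VK00037 names an attP docking site for transgenes, which lies on another chromosome than Abd-B. ChIP used the rabbit polyclonal antibody GFP ab290 against the tag. The collection protocol names y; bw cn sp flies instead, a stock that differs from the strain label. Larvae were taken whole, so the peaks are a mixture over all tissues. The deposited data are 1 peak list with 0 values per library. Replicate error and depth are therefore unknown, and no stretch without a peak can be called unbound.

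Abd-B is the posterior gene of the bithorax complex, the Hox cluster that also holds Ubx and abd-A. Its protein is a homeodomain transcription factor that gives posterior abdominal segments and the genital primordium their identity. The gene is transcribed from several alternative promoters, toward lower coordinates, and is regulated by the iab domains, long stretches of enhancers, insulators and Polycomb response elements, most of which lie past its 3′ end, toward abd-A. The flies have the endogenous gene as well as the tagged copy. The reference holds this DNA once, so reads from either copy fall on the same positions and cannot be told apart. The ends of the genomic fragment in the transgene are not given in the sources used here.

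Abd-B spans about 12752932 to 12797958, 45.0 kb, as given with the rule. The peaks ran from 12755332 to 12848297, a span of 93.0 kb, or 2.06 times the length of the gene. Of this span 54.1% lay beyond the 5′ end of Abd-B. Within the gene lay 27 peaks, at its 5′ end (within 1 kb on either side) lay 2, and beyond it lay 26. Peaks therefore continued past the end of the gene at close to the number found inside it, but over a longer stretch. There were 6.52 peaks per 10 kb from 12755000 to the 5′ end and 5.56 from there to the last peak. The peak on the 5′ end was counted in both. In order away from that end, a RefSeq table of release 6 lists VhaM9.7-d, a subunit of the vacuolar proton pump, then Actn3, an alpha-actinin family member, and AhcyL2, of the adenosylhomocysteinase-like family. The order alone was used, because the table is on another release, and no peak was placed on any of these genes.

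**Figure D1:**
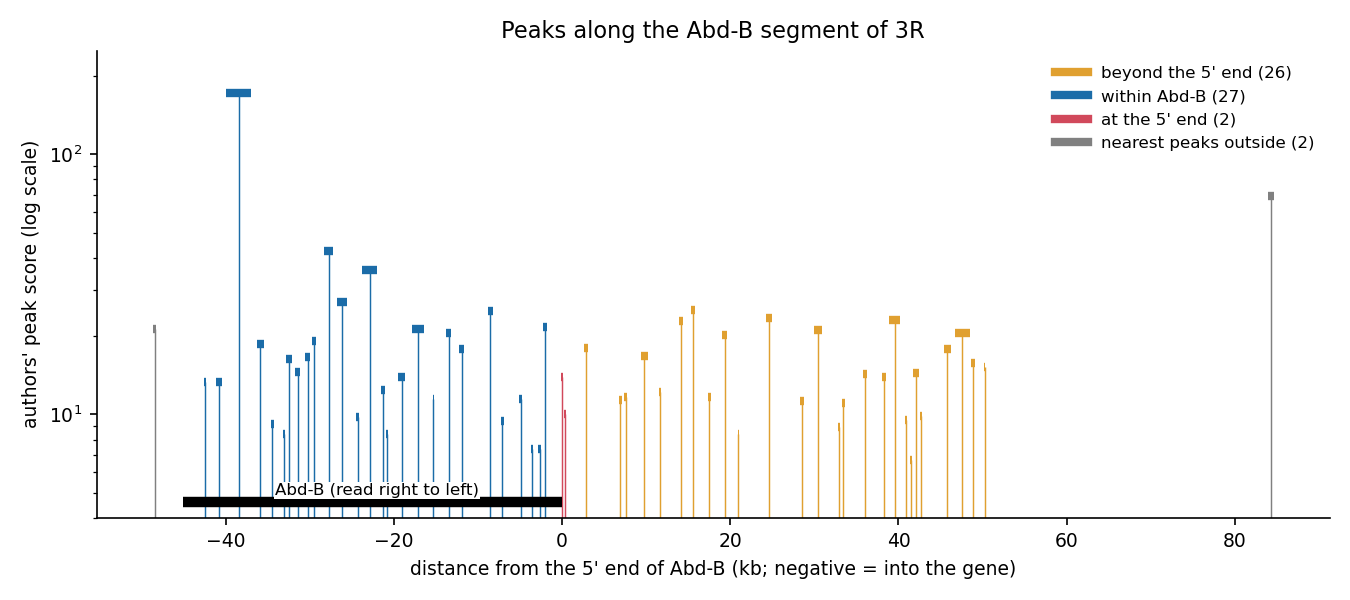
Each peak of the segment is drawn as a bar of its own width at its score (log scale), against the distance from the 5′ end of Abd-B in kb; the black bar is the gene and the grey peaks are the nearest outside. The highest peak, 38.4 kb into the gene, scored 173, while the 26 peaks beyond the 5′ end stayed between 6.70 and 25.1.

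Inside Abd-B, 18.95 kb lay in peaks. This is 44.1% of the DNA from 12755000 to the 5′ end, and 42.1% of the whole gene. The 27 peaks inside the gene had a median width of 554 bp (95% interval 365 to 660, which takes peaks as independent) and ranged from 200 to 2991 bp. Their scores, the authors' own values per peak on a scale that is not named, had a median of 14.6 (11.5 to 20.6) and ranged from 7.38 to 173. The gaps from the first peak up to the peak on the 5′ end numbered 27, with a median of 0.864 kb and a maximum of 2.85 kb. The 3′-terminal 2.40 kb of the gene held no peak.

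The strongest peak of the segment was also its broadest. This peak of 2991 bp, scoring 173, occupied 12758024 to 12761014 in the 3′ part of the gene, 5.09 to 8.08 kb from its 3′ end. On the chromosome arms 1 peak scored higher and 3 were wider, while in the whole list of 2949 peaks it ranked 8 by score. It alone made up 15.8% of the covered bases of the gene, and the covered share without it was 37.2%. The peak before it, from 12756830 to 12757489, scored 13.3 and the peak after it, from 12761676 to 12762513, scored 18.7, so its score was not shared by its neighbours.

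The next 3 scores of the segment were also inside the gene, in a group 22.9 to 27.7 kb from the 5′ end. The peak from 12769706 to 12770759 spanned 1054 bp and scored 42.5, and the one from 12774222 to 12775908 spanned 1687 bp and scored 35.8. Between them, the peak from 12771232 to 12772383 spanned 1152 bp and scored 26.9. The 2 remaining gene peaks among the 10 highest scores of the segment were narrower and nearer the 5′ end. The first, from 12789190 to 12789702, scored 24.9, and the second, from 12795645 to 12796169, scored 21.7. The fourth widest peak of the segment, from 12780157 to 12781570, was 1414 bp wide and scored 21.3.

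Low-scoring peaks stood among these. The peaks from 12794257 to 12794527 and from 12795098 to 12795491 both scored 7.38, next to the peak with 21.7. The narrowest peak of the segment, from 12782565 to 12782764, spanned 200 bp and scored 11.5. The peak from 12777028 to 12777231 was 204 bp wide, scored 8.39 and lay 87 bp from the peak before it, the shortest gap of the segment. The longest row of peaks with gaps of at most 1 kb was also in the gene, with 7 peaks from 12764729 to 12772383. With gaps of at most 2 kb it was 21 peaks, from the first peak of the segment to 12786340. That row ended at the longest gap inside the gene, 2.85 kb between the peaks ending at 12786340 (score 17.8) and starting at 12789190 (score 24.9).

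At the 5′ end of Abd-B, the farthest upstream start in the gene's span, the peaks were narrow. A peak of 205 bp, from 12797867 to 12798071, lay across the end position itself and scored 13.9. A second, from 12798215 to 12798448, followed after 143 bp and measured 234 bp, scoring 10.0. Their ranks by score among the 55 peaks were 29 and 43. The window of 2.00 kb around the 5′ end was covered to 21.9%. The alternative promoters inside the gene could not be placed, since no transcript starts on release 5 were used here. Whether the broad peak in the 3′ part of the gene lies at one of them was therefore not tested.

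Beyond the 5′ end, 14.4 kb lay in peaks, 28.6% of the 50.3 kb up to the end of the last peak. The 26 peaks there had a median width of 462 bp (305 to 623) and ranged from 201 to 1745 bp. Their scores had a median of 14.3 (11.4 to 18.0) and ranged from 6.70 to 25.1. The median score thus lay within the interval of that inside the gene, which takes peaks as independent. Even so, 4 gene peaks scored above the top of the range beyond the 5′ end. From the peak on the 5′ end to the last peak there were 27 gaps, with a median of 1.21 kb and a maximum of 3.59 kb. Gaps were wider here than inside the gene by the median, and the 3 longest of the segment were all on this side. No test of this difference was made, since the peaks belong to 1 list and to 1 stretch of DNA.

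The highest score beyond the 5′ end was 25.1, for the peak from 12813235 to 12813791, 557 bp wide and 15.6 kb from the gene. The peak before it, from 12811833 to 12812344, scored 22.9. A peak from 12822201 to 12822889 scored 23.6 and was bounded by long gaps on both sides, of 3.33 kb away from the gene and 3.18 kb toward it. The peak on the near side of it, from 12818821 to 12819021, was 201 bp wide and scored 8.40, and the one on the far side, from 12826224 to 12826750, scored 11.3. The longest gap, 3.59 kb, separated the peaks from 12800583 to 12801076 (score 18.0) and from 12804668 to 12805113 (score 11.4). The stretch from 20 to 30 kb beyond the gene was the thinnest, with 3 peaks.

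Broad peaks came back near the far end. The second widest peak of the segment spanned 1745 bp from 12844671 to 12846415 and scored 20.5. The fifth widest spanned 1233 bp from 12836880 to 12838112 and scored 23.1. Close to them was the lowest score of the segment, 6.70, for the peak from 12839272 to 12839527. The last peak of the segment, from 12848089 to 12848297, spanned 209 bp and scored 15.2. The first, from 12755332 to 12755634, spanned 303 bp and scored 13.3, so neither edge of the block was marked by a strong peak.

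In full bins of 10 kb counted from the 5′ end, the covered share was highest toward both ends of the segment and lowest between. The partial bins at the gene end and the far end, 2.63 and 0.339 kb long, were covered to 36.7% and 61.7%. The share was 62.3% from 40 to 30 kb inside the gene, 55.6% from 30 to 20 kb, 36.6% from 20 to 10 kb and 25.4% over the last 10 kb. In the bin with 62.3%, the strongest peak alone gave 2991 of the 6232 covered bases. Outward from the 5′ end the share was 22.2%, 24.6%, 14.8%, 33.2% and 47.1% in successive bins. The 4 full gene bins held 7, 7, 5 and 6 peaks, with median widths of 600, 554, 651 and 388 bp. The first 10 kb beyond the gene held 6 peaks of a median of 375.5 bp, counting the 2 narrow peaks at the 5′ end.

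**Figure D2:**
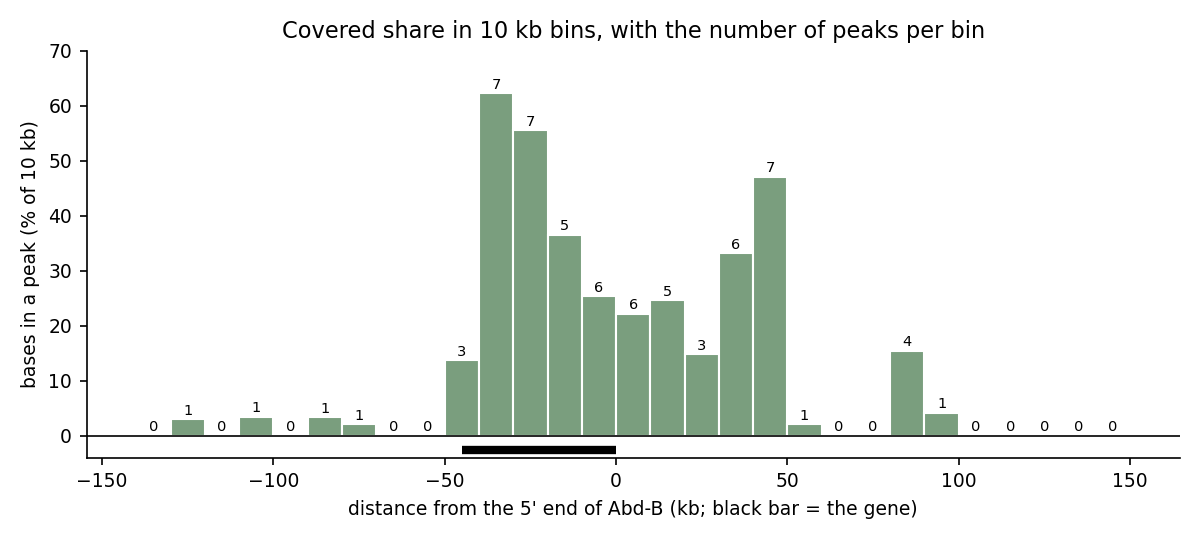
Bars give the share of bases in a peak for each 10 kb bin, by distance in kb from the 5′ end of Abd-B (the gene is the black bar), with the number of peaks above. Covered shares of 14.8 to 62.3% fill the 9 bins from 40 kb inside to 50 kb beyond the 5′ end, and most bins outside hold no peak.

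Peaks were sparse on both sides of the block, around which the window of the rule had been drawn. Past the 3′ end of Abd-B the nearest peak, from 12749298 to 12749706 (409 bp, score 21.3), lay 5.62 kb from the first peak of the segment and 3.23 kb outside the gene. On the other side the nearest, from 12881934 to 12882577 (644 bp, score 69.0), lay 33.6 kb from the last peak. Of the 2650 gaps on the arms, 65.8% were at least as long as the first and 34.1% at least as long as the second, so the breaks themselves were of ordinary length for this list. Windows of 95 kb on the abd-A side and on the far side, the length of the window of the rule, held 5 peaks each. They were covered to 1.69% and 2.07%, against 35.1% for the window itself. The arms outside the segment were covered to 0.898%, so both windows lay far below the segment but above that level. The median score of the 5 peaks was 21.3 on the side toward abd-A and 15.15 on the far side. The highest scores there were 34.4 and 69.0. Most iab domains lie toward abd-A, but no peak was placed on any of them.

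Scores in the segment were spread much like those of the other arm peaks, except at the top. Of the 55 peaks, 43 scored above 10 (78.2%; 79.1% of the 2601 arm peaks outside the segment), 25 above 15 (45.5%; 41.9% outside) and 15 above 20 (27.3%; 25.0% outside). Above 30 there were 3 (5.45%; 12.1% outside), all of them inside the gene. The median was 14.3 (11.7 to 17.8) in the segment and 13.5 (13.2 to 13.8) outside it. The dense block is thus mostly made of peaks of middling score. Its median score was slightly above that of the other arm peaks, which lay within the interval of the segment. That interval takes peaks as independent, and no test was made.

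Widths and gaps lay apart from those of the other arm peaks. Of the 55 peaks, 28 were wider than 500 bp (50.9%; 22.7% of arm peaks outside the segment) and 7 were wider than 1000 bp (12.7%; 2.19% outside). Inside the gene 17 of 27 were wider than 500 bp, and beyond it 11 of 26. The median width was 512 bp (365 to 595), against 342 bp (335 to 350) outside. Of the 54 gaps, 29 were at most 1 kb (53.7%; 14.0% outside), 46 at most 2 kb (85.2%; 20.7% outside) and all 54 at most 5 kb (31.3% outside). The window was drawn around close-set peaks, which bears directly on the gap shares. The widths come from the same peak calls and are given without a test.

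**Figure D3:**
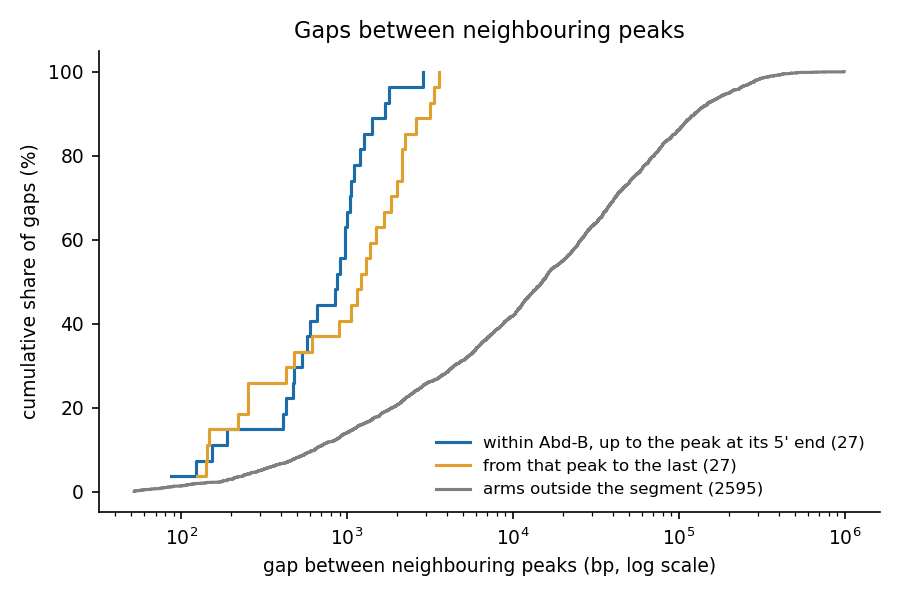
Cumulative share of gaps (percent) against gap length in bp (log scale) for the gene, for the DNA beyond its 5′ end and for the arms outside the segment. The medians are 0.864, 1.21 and 15.0 kb, and no gap of the segment exceeds 3.59 kb.

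Within each band of score, the median width of the segment's peaks was above that of all other arm peaks. For scores up to 10 the median width was 281 bp (12 peaks) against 257.5 bp outside, and from 10 to 15 it was 378.5 bp (18 peaks) against 304 bp. From 15 to 20 it was 608 bp (10 peaks) against 386 bp, and from 20 to 30 it was 656 bp (12 peaks) against 467 bp. The 3 peaks above 30, all in the gene, had a median of 1687 bp against 577.5 bp. The same held for gene peaks and for peaks beyond the 5′ end taken apart, except for the 5 lowest-scoring peaks beyond the gene, whose median was 232 bp. Above 30 there was no peak beyond the 5′ end to compare. Score and width rose together along the segment, with Spearman's rho of 0.77 over 55 peaks, 0.78 inside the gene and 0.77 beyond it, and 0.59 over the 2601 other arm peaks. Both measures come from the same peak calls, and the peaks of the segment are neighbours in 1 region.

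**Figure D4:**
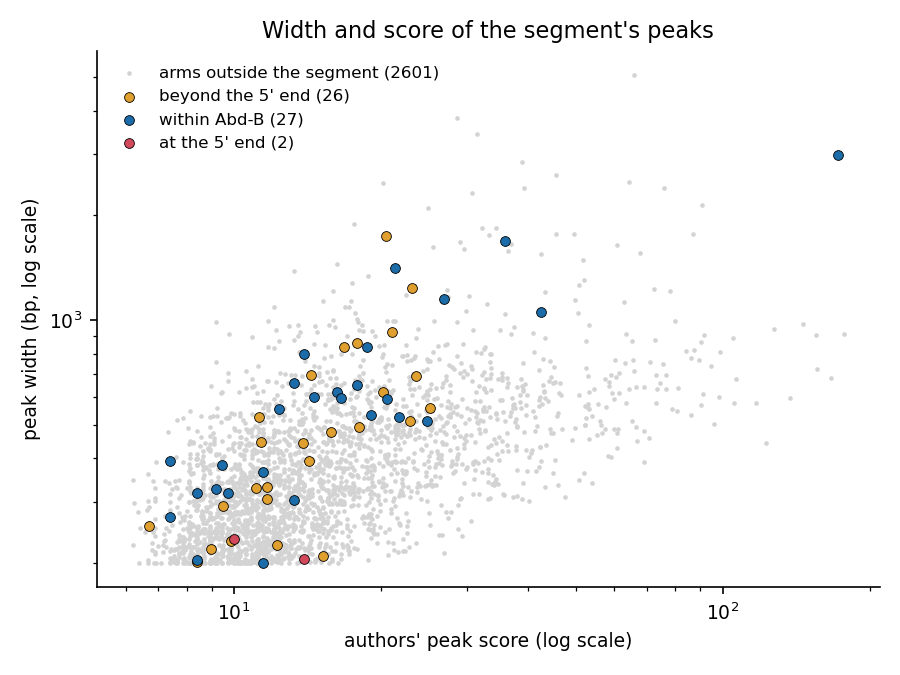
Peak width in bp against the authors' score (both axes log) for peaks inside Abd-B, at its 5′ end and beyond it, over the 2601 other arm peaks in grey. Segment peaks lie in the upper part of the grey cloud at most scores, and the peak of 2991 bp stands alone at a score of 173.

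The longest row on X, set beside the segment here, had 33 peaks from 1454969 to 1521744 with gaps of at most 5 kb. Its covered share from first to last peak, 42.6%, was above the 35.9% of the Abd-B segment measured the same way. It was near the 44.1% of the Abd-B gene alone. The median width of the row was 503 bp and its median gap 0.866 kb. Its scores reached 75.7, lower than the 173 of the strongest Abd-B peak but above the 25.1 reached beyond the 5′ end of Abd-B. In the bands of score from 10 up, its median widths were 479, 898.5, 841 and 1768 bp (11, 2, 5 and 5 peaks), above those of the Abd-B segment, and up to 10 it was 275 bp (10 peaks). Rows on the other arms were not compared. The sample titles carry the term vMock, but which libraries served as control in peak calling is not given. The number of copies of either region in the ChIP and control chromatin was not tested.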

How the data were processed

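Peaks were taken from the deposited list, which is on FlyBase release 5 and names MACS, per the file headers. Tools listed without parameters, per the submitters' processing notes, are MACS2, BWA and CASAVA (1.7.0.3 and 1.7.0.2), with build BDGP5. For every peak the authors deposited a start, an end and a score. The sample titles carry the term vMock, but neither the libraries used as control nor any pooling of replicates is given in the sources used here. Because the smallest deposited start is 0, starts were raised by 1. The members and lists were chosen with earlier results of these data known. The window and the ends of Abd-B came with the rule. Abd-B, Ubx and abd-A were listed, but no release 5 annotation was at hand, so peaks at Ubx and abd-A were not counted and no motif was searched. Peaks named in full are the 10 highest-scoring, 5 widest, 3 lowest-scoring and 3 narrowest, the first and last, those at the 5′ end, beside the 3 longest gaps and nearest outside. Others named by position were chosen after their values were seen. Arms are 2L, 2R, 3L, 3R, X and 4. Medians carry 95% order-statistic intervals, which take peaks as independent. Python 3.11.15, numpy 2.4.6, pandas 2.3.3, scipy 1.17.1 and matplotlib 3.10.9 were used, and interval functions were tested on simulated data. Alternatives were higher score limits, merged peaks, placement by overlap, starts counted from 1 and other windows, gaps and ends. With no value per library there is no depth, no interval for counting error and no test.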

Additional observations from a re-analysis of the deposited data

How the results depend on the processing

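No paired analysis was possible because the list has no value per library, and for the same reason no replicate could be left out. Of 62 alternatives 28 stayed within 1.5 times a count, within the 95% interval of a median, or within the 95% Wilson interval of a covered share (43.7 to 44.6% for the gene and 28.2 to 29.0% beyond it), among them every alternative on starts, overlap placement and the promoter window. That Wilson interval takes bases as independent and is therefore narrow. The other 34 moved. With the 1474 highest-scoring peaks of the list, 28 peaks remained, 14 in the gene, 0 at the 5′ end and 14 beyond it. These were 50.9% of the segment's peaks, against 46.0% kept among the arm peaks outside it. Covered shares were then 32.0% in the gene and 20.4% beyond, the median width 637 bp, the median score 20.3, the median gap 2614 bp and the longest row 13 peaks. With the 737 highest-scoring, 9 remained, 5 in the gene, 0 at the 5′ end and 4 beyond it. That was 16.4% of the segment's peaks, against 20.5% kept among the arm peaks outside it. Covered shares were 17.2% and 7.45%. The median width was 1054 bp, the median score 25.1, the median gap 8550 bp and the longest row 3 peaks. Merging peaks under 1 kb apart gave 26 peaks, 9, 1 and 16 in the same order, with covered shares of 68.0% and 35.9%, a median width of 803 bp, a median score of 19.1, a median gap of 1662 bp and a longest row of 26. The longest row was 21 peaks with gaps of at most 2 kb and 7 with gaps of at most 1 kb. The covered share of the gene was 37.2% without the highest-scoring peak and 42.1% over the whole gene, both chosen after seeing the data. In each alternative that gave both shares, the gene was covered more than the DNA beyond it. Placement by overlap gives no other covered share, since bases are counted.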
